A study of Mus musculus with 28 samples.

Results

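The proteasome is the large protease that degrades ubiquitin-tagged proteins in the nucleus and cytoplasm. Its barrel-shaped core particle (20S) stacks rings of alpha subunits, which gate the entrance, on rings of beta subunits, some of which carry the proteolytic sites. The regulatory particle (19S) recognises the ubiquitin tag, removes it and unfolds the substrate with a ring of ATPases, while dedicated chaperones assist the assembly of both particles and other activators can cap the core in its place. The genes described here were all rows of the Bru-seq tables whose name starts with Psma, Psmb, Psmc, Psmd, Psme, Psmf or Psmg and goes on with a digit, which are 50 of 24984 genes. By their known roles, 19 belong to the core, 22 are regulatory and 7 are assembly chaperones. The other 2 matched the name only: Psmc3ip, a meiotic recombination factor, and Psme2b, named as a copy of the activator gene Psme2.

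Bru-seq reads out newly made RNA: 5-bromouridine (BrU) is offered to the cells for a short pulse, and RNA that incorporated it is pulled down with an antibody and sequenced. Elongin A (EloA) is the largest subunit of the Elongin complex, which acts on elongating RNA polymerase II and also serves as part of a ubiquitin ligase. Wild-type (WT) and EloA null mouse embryonic stem cells (mESCs) were compared in steady state, with 2 mM BrU for 10 min, and after release from 1 µM flavopiridol (FP), a CDK9 inhibitor that blocks the entry of polymerase into elongation. FP was given for 60 min and washed out, and BrU was then present for 5 min or for 10 min. Each of these 6 groups had 2 libraries. WT and EloA null cells came from another laboratory, were grown on mouse embryonic fibroblast feeders with LIF, PD0325901 and CHIR99021, and were depleted of feeders before labelling. How the Eloa alleles were disrupted and how many lines stand for each genotype are not given in the sources used here, so other differences between the lines cannot be told apart from the genotype. The labels name the cells CCE28 in one place and CJ7 in another. The first steady-state library titled EloA null has wild type as its genotype entry; it was placed by its title, and the steady-state results are also given without it.

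Nascent RNA of the targeted gene, Eloa, was not lower in the libraries labelled EloA null: in steady state it was 1.18 and 1.16 RPKM (reads scaled to feature length and library size) in the WT libraries and 1.96 and 1.89 RPKM in the libraries labelled EloA null. Since the tables give 1 value for the whole gene, they cannot show whether the alleles were disrupted. EloA protein, which the study examined by immunoblot, and the CUT&RUN libraries were not analysed here. Library sizes, recovered from the steps between the RPKM values, ran from 9857527 to 28547356 reads, and were lowest in the 5-min recovery. All 11 pluripotency markers were above 0.5 RPKM in every group. Of 15 feeder fibroblast markers, 2 to 3 were above 0.5 RPKM (among Fn1, Col1a1 and Col5a1), their sum ran from 9.84 to 14.2 RPKM in WT and from 10.4 to 14.5 RPKM in the libraries labelled EloA null, and Fn1 reached 12.3 RPKM, Col1a1 1.44 RPKM, Col5a1 0.777 RPKM and Col1a2 0.542 RPKM in their highest library, while Lum and Dcn stayed at 0.0308 RPKM or less. Their part in the proteasome genes' values was not tested.

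In WT cells in steady state, 44 of the 50 genes were above 0.5 RPKM, with a median of 3.17 RPKM and a range from 0.500 to 7.99 RPKM. The median of all 10796 genes above this limit was 1.91 RPKM. The length behind these values was the summed length of the introns plus a few bases for each intron. With it, 46 of the 50 genes gave whole reads in all 12 libraries. None of the genes with introns did so with the span of the gene. The study's methods speak of reads counted in whole genes, so whether the reads counted were intronic only is not settled. A lower value in such bulk libraries can come from fewer cells that transcribe a gene or from less RNA in each, which cannot be told apart. The libraries of a group gave close values for most of these genes: the larger value was a median of 1.08 times the smaller in WT and 1.12 times in the libraries labelled EloA null, where Psmb10, Psmd12 and Psme1 differed by more than 1.5 times.

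The 31 constitutive subunits with such a name (Psma1 to Psma7, Psmb1 to Psmb7, the 6 ATPases and 11 further subunits of the regulatory particle) were transcribed within a narrow range. Of the regulatory particle's subunits with other names, Adrm1 had 4.14 and 4.70 RPKM and Sem1 3.46 and 3.61 RPKM in WT, within that range. From the lowest, Psma6 at 1.62 RPKM, to the highest, Psma4 at 6.00 RPKM, the levels spanned 3.71-fold. The Psma6 value rests on a length of 33314 bases, although a start farther downstream is also annotated. Which start the cells use was not tested, and a shorter length would give a higher value. The 90th percentile of these 31 was 2.47 times the 10th, against 9.14 times for all expressed genes, and 30 of the 31 lay above the median of all expressed genes. The alpha subunits had a median of 3.28 RPKM, the beta subunits 2.79 RPKM, the ATPases 3.19 RPKM and the other regulatory particle subunits 3.20 RPKM.

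Among the alpha subunits Psma4, at 6.20 and 5.80 RPKM in the WT libraries, was highest. Psma8, the variant of spermatocytes, was lowest with 1.57 and 1.56 RPKM, yet it lay at the 40.7th percentile of expressed genes. The highest beta subunit gene was Psmb7, which encodes the trypsin-like site (5.86 and 5.81 RPKM), and the lowest was Psmb6, which encodes the caspase-like site (1.73 and 2.23 RPKM). The ATPase genes ran from Psmc4 (2.70 and 2.46 RPKM) to Psmc3 (5.52 and 4.84 RPKM). In the rest of the regulatory particle, Psmd2, a scaffold and docking subunit of the base, was lowest (2.08 and 1.96 RPKM) and Psmd14, the deubiquitinase of the lid, was highest (4.70 and 5.38 RPKM). Within each of these groups the lowest and the highest gene did not overlap between libraries, but they were picked from these same values.

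The assembly chaperones lay lower, with the exception of 1 gene for each particle. Psmd5, a chaperone of the regulatory particle base, had 3.43 and 2.96 RPKM, whereas Psmd9 had 1.39 and 1.07 RPKM and Psmd10 (gankyrin), the lowest of the 3, 0.605 and 0.585 RPKM. Psmg1, which with Psmg2 guides the assembly of the alpha ring, had 3.29 and 3.26 RPKM, and Psmg4, the lowest of the 4 core chaperones, had 1.01 and 0.831 RPKM. The alternative activators spanned the whole range. Psme4, the nuclear activator with a role in histone turnover, was the highest of all 50 genes at 7.47 and 8.51 RPKM, the 93.1th percentile of expressed genes, and it was also the longest, at 109376 bases, with Erlec1 overlapping it. Psme3, the nuclear activator subunit, followed with 5.18 and 5.13 RPKM. Psme1 and Psme2, the interferon-inducible activator subunits, had 0.201 and 0.328 RPKM and 0.247 and 0.161 RPKM, below the limit. Of the name matches outside the complex, Psmc3ip had 3.31 and 3.22 RPKM and Psme2b had 0.0790 and 0.0676 RPKM.

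**Figure D1:**
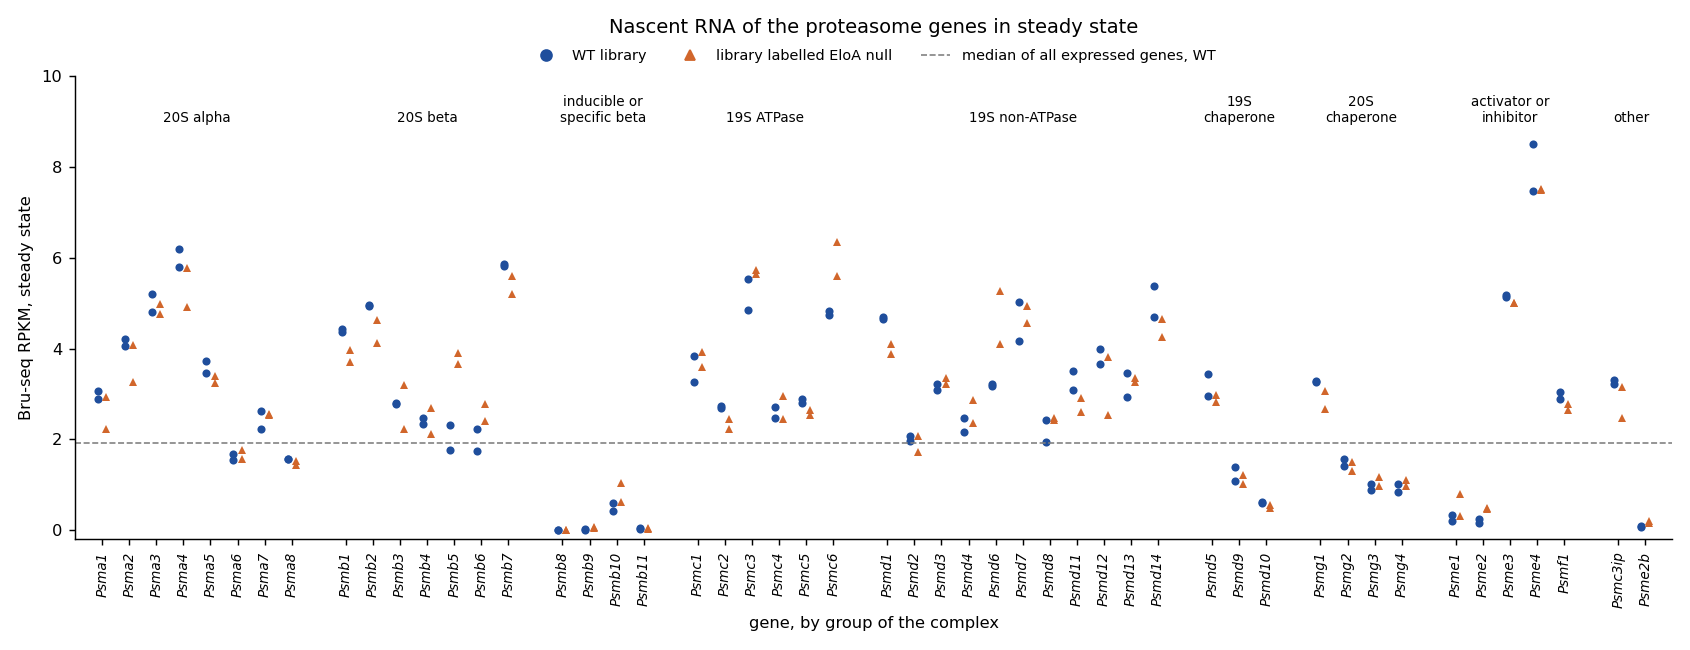
Bru-seq RPKM in steady state of the 50 genes, 1 point per library, by group of the complex; circles are WT libraries, triangles libraries labelled EloA null, and the dashed line is the median of all expressed genes in WT (1.91 RPKM). The standard alpha, beta and 19S subunits lie mostly between 2 and 6 RPKM. The inducible beta genes Psmb8 and Psmb9 and the thymus gene Psmb11 lie at or near 0.

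Interferon-inducible catalytic subunits replace the standard ones in the immunoproteasome of antigen-presenting and stimulated cells, and Psmb11 does so in the thymus. In these mESCs the genes of the replaced and the replacing subunits lay far apart. Psmb8 had 0 reads in all 12 libraries. Its standard counterpart Psmb5, which encodes the chymotrypsin-like site, had a mean of 2.04 RPKM in WT steady state, at least 72.2-fold higher than the level that 3 reads over the group would give Psmb8. Psmb9 had 3 and 1 reads in the WT steady-state libraries and 5 and 7 reads in those labelled EloA null, and in recovery it had 2 reads at most. With 4 reads over both WT libraries, its mean of 0.0182 RPKM was 109-fold below the 1.98 RPKM of Psmb6, a ratio that these few reads leave imprecise. Psmb11 had from 0 to 5 reads per library.

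Psmb10 was the only inducible catalytic gene with more than a few reads in steady state. It had 20 and 16 reads in WT (0.594 and 0.407 RPKM) and 20 and 41 reads in the libraries labelled EloA null (0.613 and 1.04 RPKM), which was 11.7-fold and 6.53-fold below Psmb7. All 4 steady-state values of Psmb10 lay below those of Psmb7 by far, and the genotypes did not overlap, although the lower of the libraries labelled EloA null was close to the higher WT library. After FP release it had 8 reads over both WT libraries at 10 min. Of 11 other genes of the interferon response and antigen presentation, 1 to 4 were above 0.5 RPKM in a group, Isg15 and Ifit1 were at or near 0, and their sum ran from 1.33 to 3.82 RPKM in WT and from 1.47 to 4.24 RPKM in the libraries labelled EloA null.

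**Figure D2:**
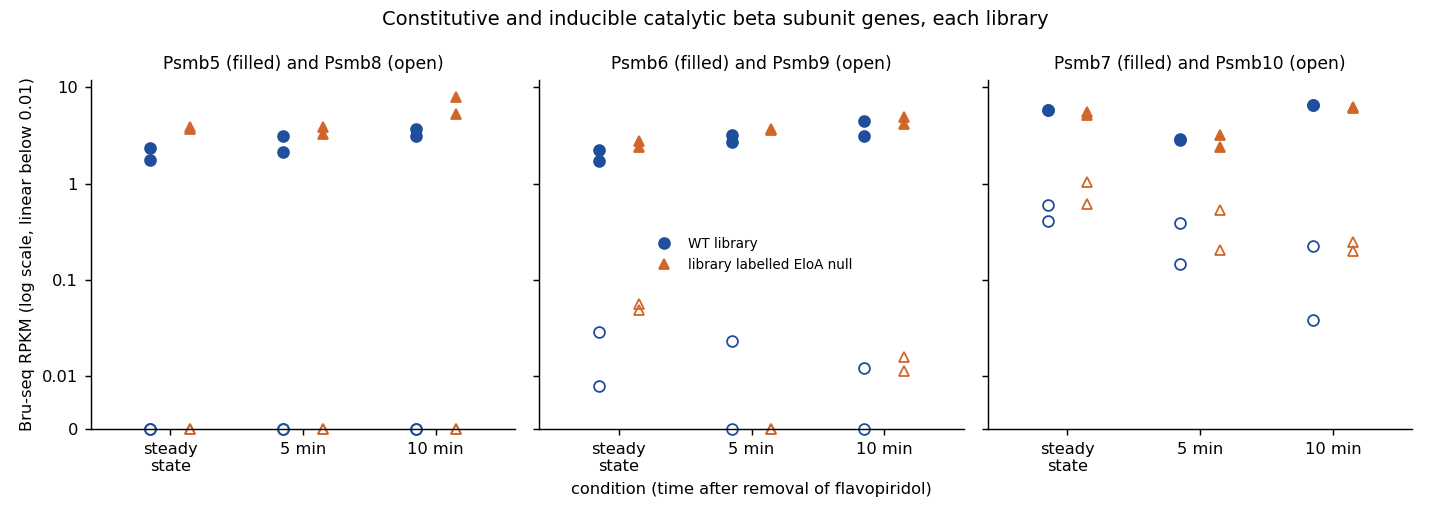
Bru-seq RPKM (log scale, linear below 0.01) of each standard catalytic gene (filled) and its inducible counterpart (open) in every library, by condition; circles are WT and triangles are labelled EloA null. Psmb8 is at 0 in all 12 libraries, Psmb9 stays below 0.1 RPKM, and Psmb10 stays below Psmb7 in every library.

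Promoters of proteasome genes are known to be read by NFE2L1 and NFE2L2, which bind antioxidant response elements, and in many housekeeping genes by NRF1, NF-Y and ETS factors. RefSeq promoters (GRCm38.p6, 250 bases before to 50 after the start) were at hand for 42 of the 50 genes and were searched on both strands. The core of the antioxidant response element, TGACNNNGC, stood in 6 of 42 (14.3%; 17.0% of the promoters of expressed genes and 13.99% of all). The NRF1 core, TGCGCA, also stood in 6 (14.3%; 17.1% of expressed and 8.79% of all), and CCAAT, the NF-Y box, in 15 (35.7%; 43.5% of expressed and 41.1% of all). The ETS core, CCGGAAG, was found in 15 of 42 (35.7%), against 22.4% of expressed genes and 9.93% of all genes. Matches to different motifs may overlap. These shares describe the letters in this window and say nothing of binding.

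The promoters below are shown because the results turn on these genes. Psmb5 (chr14:54617966-54618245, minus strand), Psmc6 (chr14:45329574-45329853, plus strand) and Psmd6 (chr14:14120916-14121195, minus strand) lie on chromosome 14 and had the smallest p between genotypes in steady state. Psma2 (chr13:14612992-14613271, plus strand) and Psmd2 (chr16:20651402-20651681, plus strand) had among the highest levels after FP release relative to steady state, and Psmd9 (chr5:123227940-123228219, plus strand) the lowest at 5 min. Each runs 5′ to 3′ from 250 bases before the start to 30 bases after it, and capitals mark matches to any of the 4 motifs on either strand.
Psmb5: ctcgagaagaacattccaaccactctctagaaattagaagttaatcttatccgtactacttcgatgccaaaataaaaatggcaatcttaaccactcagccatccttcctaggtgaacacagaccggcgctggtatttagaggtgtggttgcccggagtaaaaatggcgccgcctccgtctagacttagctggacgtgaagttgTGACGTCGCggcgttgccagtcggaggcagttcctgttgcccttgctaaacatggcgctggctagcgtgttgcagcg
Psmc6: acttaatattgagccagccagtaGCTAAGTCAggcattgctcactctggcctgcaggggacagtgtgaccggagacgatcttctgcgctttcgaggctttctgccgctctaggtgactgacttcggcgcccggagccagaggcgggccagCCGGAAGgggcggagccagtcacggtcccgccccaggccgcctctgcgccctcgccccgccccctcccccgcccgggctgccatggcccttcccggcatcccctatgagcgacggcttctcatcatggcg
Psmd6: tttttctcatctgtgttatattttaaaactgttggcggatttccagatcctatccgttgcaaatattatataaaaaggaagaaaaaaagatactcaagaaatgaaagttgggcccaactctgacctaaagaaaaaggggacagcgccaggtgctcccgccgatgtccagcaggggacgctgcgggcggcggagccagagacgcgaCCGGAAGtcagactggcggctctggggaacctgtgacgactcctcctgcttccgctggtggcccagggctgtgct
Psma2: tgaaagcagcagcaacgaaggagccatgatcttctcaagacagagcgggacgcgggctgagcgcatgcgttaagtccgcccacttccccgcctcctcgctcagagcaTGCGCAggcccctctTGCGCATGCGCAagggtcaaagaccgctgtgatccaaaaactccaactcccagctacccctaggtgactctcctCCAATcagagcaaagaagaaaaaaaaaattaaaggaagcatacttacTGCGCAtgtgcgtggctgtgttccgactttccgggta
Psmd2: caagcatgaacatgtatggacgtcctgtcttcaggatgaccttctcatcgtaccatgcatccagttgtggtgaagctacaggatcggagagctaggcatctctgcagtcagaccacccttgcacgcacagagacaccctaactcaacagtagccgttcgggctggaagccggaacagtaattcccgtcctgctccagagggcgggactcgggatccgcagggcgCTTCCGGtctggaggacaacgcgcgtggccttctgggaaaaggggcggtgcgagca
Psmd9: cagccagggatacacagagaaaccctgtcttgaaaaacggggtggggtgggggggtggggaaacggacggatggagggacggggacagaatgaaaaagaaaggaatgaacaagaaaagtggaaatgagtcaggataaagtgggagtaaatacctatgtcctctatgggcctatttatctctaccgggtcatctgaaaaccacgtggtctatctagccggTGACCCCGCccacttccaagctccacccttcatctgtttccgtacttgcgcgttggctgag
Psma2 held 4 NRF1 cores and a CCAAT box, the largest number of NRF1 cores among the 42 genes. Psmb5 and Psmd9 held an antioxidant response element core within 50 bases before the start. Psmc6 held such a core farther upstream and an ETS core, and the single matches in Psmd6 and Psmd2 were ETS cores. No motif of the 4 was shared by all 3 genes of chromosome 14.

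After FP is removed, polymerase enters genes anew from their starts, and the recovery tables give each gene's nascent RNA of the first 5 or 10 min. The 5-min, 10-min and steady-state tables were normalized separately and the pulses differ in length, so the ratios to steady state are given as a description beside those of all expressed genes. In WT cells the median ratio of the 44 genes was 1.39 at 5 min and 2.55 at 10 min, against 0.631 and 1.03 for the 10796 expressed genes. At 5 min 28 of the 44 genes were above their steady-state level, where 28.2% of all expressed genes were, and at 10 min 40 of 44, where 51.3% were. The mean at 10 min was above that at 5 min for 41 of the 44 (76.1% of all expressed genes), the exceptions being Psmb10, Psmc5 and Psme4. The libraries labelled EloA null gave medians of 1.41 and 2.69 over 45 genes, against 0.560 and 1.02 for all genes. There 28 of 45 were above steady state at 5 min (25.2% of all expressed genes) and 40 of 45 at 10 min (51.0%), and 43 of 45 were higher at 10 than at 5 min (79.4%). Without the steady-state library whose labels conflict, the medians were 1.44 and 2.62.

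Most groups of the complex had similar median ratios, with lower values for the chaperones and the activators. At 5 min the median ratio in WT was 1.73 for the alpha subunits, 1.75 for the beta subunits, 2.07 for the ATPases and 1.75 for the other regulatory particle subunits, whereas the 7 assembly chaperones had a median of 0.760 and the 3 expressed genes of the activators and inhibitor (Psme3, Psme4 and Psmf1) one of 0.993. At 10 min these values were 3.18, 2.64, 3.34, 2.70, 2.21 and 2.20. Of the 7 chaperones, 2 were above their steady-state level at 5 min (28.2% of all expressed genes) and 5 at 10 min (51.3%). The chaperones and the activators were thus lower than the other groups only. Their medians were not below those of all expressed genes, 0.631 at 5 min and 1.03 at 10 min.

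Psma2, an alpha ring subunit, had 4.22 and 4.05 RPKM in WT steady state, 14.4 and 13.8 RPKM at 5 min and 15.6 and 18.8 RPKM at 10 min. Its promoter, shown above, faces that of Mrpl32. The libraries labelled EloA null gave 4.09 and 3.27 RPKM, then 14.8 and 17.1 RPKM, then 16.6 and 19.3 RPKM. Its 5-min values were thus already close to its 10-min values in both genotypes. Psmc2, an ATPase whose start faces that of Dnajc2, had the highest ratio of the WT genes at 5 min (3.68, the 99.1th percentile of expressed genes), with 2.74 and 2.68 RPKM in steady state, 10.2 and 9.69 RPKM at 5 min and 11.3 and 11.8 RPKM at 10 min. Psmd2 had the highest at 10 min (4.82): its WT libraries went from 2.08 and 1.96 RPKM through 6.14 and 5.16 RPKM to 9.24 and 10.2 RPKM. For these 3 genes, picked for their high recovery values, those values lay above every steady-state value of both genotypes.

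Psmd9 had the lowest WT ratio at 5 min. It went from 1.39 and 1.07 RPKM in steady state to 0.236 and 0.131 RPKM at 5 min, from 45 and 32 reads, and to 0.972 and 0.635 RPKM at 10 min. Psmg4 was similar, with 1.01 and 0.831 RPKM, then 0.172 and 0.161 RPKM, then 0.656 and 0.517 RPKM. The libraries labelled EloA null gave 0.156 and 0.123 RPKM for Psmd9 and 0.159 and 0.220 RPKM for Psmg4 at 5 min, so both chaperone genes stood far below their steady-state level in all 4 libraries. Psmb10 had the lowest ratio at 10 min (0.263 in WT), from 1 and 7 reads.

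The proteasome genes were also set beside genes of the same span, since a long gene takes polymerase longer to cross. In WT at 10 min their medians were 1.73 below 5 kb (6 genes), 2.96 from 5 to 10 kb (11 genes), 2.81 from 10 to 15 kb (8 genes), 3.00 from 15 to 30 kb (11 genes) and 1.09 above 30 kb (8 genes). All expressed genes had medians of 1.03, 1.63, 1.74, 1.44 and 0.706 in these classes. At 5 min the proteasome genes gave 1.09, 2.08, 1.32, 1.27 and 0.788, and all genes 0.773, 0.820, 0.719, 0.527 and 0.585. The proteasome genes thus had the higher median in each of the 5 classes at both times.

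Among the longest, Psme4 had 10.3 and 12.1 RPKM at 5 min and 7.48 and 8.24 RPKM at 10 min, against 7.47 and 8.51 RPKM in steady state. Its values thus lay above those of steady state at 5 min and within their range at 10 min. The tables were normalized separately, each value covers the whole gene and Erlec1 overlaps it. A return of transcription to steady state along Psme4 is therefore not shown. Psmd1 was near its steady-state level of 4.65 and 4.69 RPKM at both times, with 4.07 and 4.70 RPKM at 5 min and 4.85 and 4.56 RPKM at 10 min. As for Psme4, such whole-gene values do not show that transcription along Psmd1 had returned to steady state. Psma8 had 0.773 and 0.600 RPKM at 5 min and 1.74 and 1.47 RPKM at 10 min. Psmd11, Psmd14 and Psmb7 had ratios of 0.455, 0.638 and 0.488 at 5 min and 1.47, 1.07 and 1.12 at 10 min. By contrast, Psma6 and Psmb2, the shortest of the class at 34238 and 32079 bases, reached 3.51 and 2.96 times their steady-state level at 10 min.

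**Figure D3:**
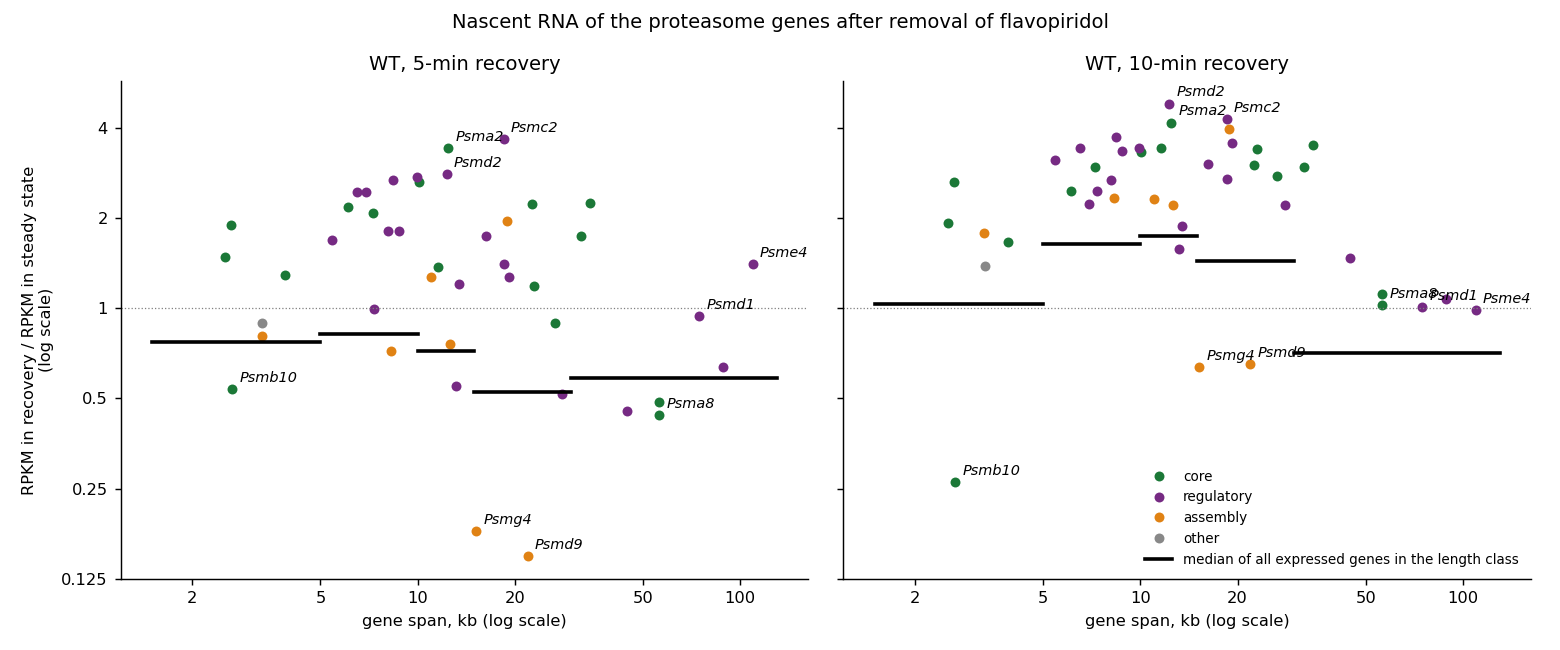
Ratio of mean RPKM in recovery to mean RPKM in steady state (log scale) against gene span in kb (log scale) for the 44 genes expressed in WT, at 5 min (left) and 10 min (right) after FP removal, coloured by core, regulatory, assembly or other; black bars are medians of all expressed genes in 5 length classes. Most points lie above the bars, while Psmd9 and Psmg4 lie far below them at 5 min, and Psmb10 at 10 min.

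Whether the nascent RNA of these genes differed between WT libraries and those labelled EloA null was tested within each table with limma on log2(RPKM + 0.1). The test took in 45 of the 50 genes in steady state, 41 in the 5-min recovery and 45 in the 10-min recovery, after a limit of 0.5 RPKM in either genotype. Psmb8, Psmb9, Psmb11 and Psme2 stayed below it in steady state, as did Psme2b. Psme1 (steady state), Psme1 and Psme2 (10 min) and Psme2b (5 min) passed it only through the libraries labelled EloA null. No proteasome gene passed an adjusted p of 0.05 in any condition, nor did any of the other genes (0% called). At an unadjusted p under 0.05 there were 3 in steady state (18.4% of all genes tested), 4 in the 5-min recovery (9.42%) and 6 in the 10-min recovery (20.5%), which is a smaller share than that of all genes in steady state and at 10 min. The p-values measure the spread between 2 libraries a group. The study calls its Bru-seq experiments independent, without saying what was kept separate between them.

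The median log2 difference, EloA null minus WT, was -0.07 for the 45 genes in steady state, -0.05 for the 41 at 5 min and 0.01 for the 45 at 10 min, where it was below 0 under 4 other scalings, beside 0.03, -0.06 and 0.06 for all genes tested. In steady state Psmb5, Psmb10 and Psme1 were over 1.5-fold higher by mean RPKM (7.21% of all genes) and 0 were over 1.5-fold lower (2.10%). At 5 min 0 were over 1.5-fold higher (5.40%) and 1, Psmg2, was lower (6.72%). At 10 min Psmb5, Psmd6, Psme1, Psme2 and Psmg3 were higher (9.41%) and 0 lower (3.01%). Counted by values that did not overlap between genotypes, 7 of 45 were higher (32.0% of all genes) and 16 lower (21.4%) in steady state, 7 of 41 higher (15.4%) and 10 lower (25.0%) at 5 min, and 10 of 45 higher (33.5%) and 13 lower (21.8%) at 10 min.

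**Figure D4:**
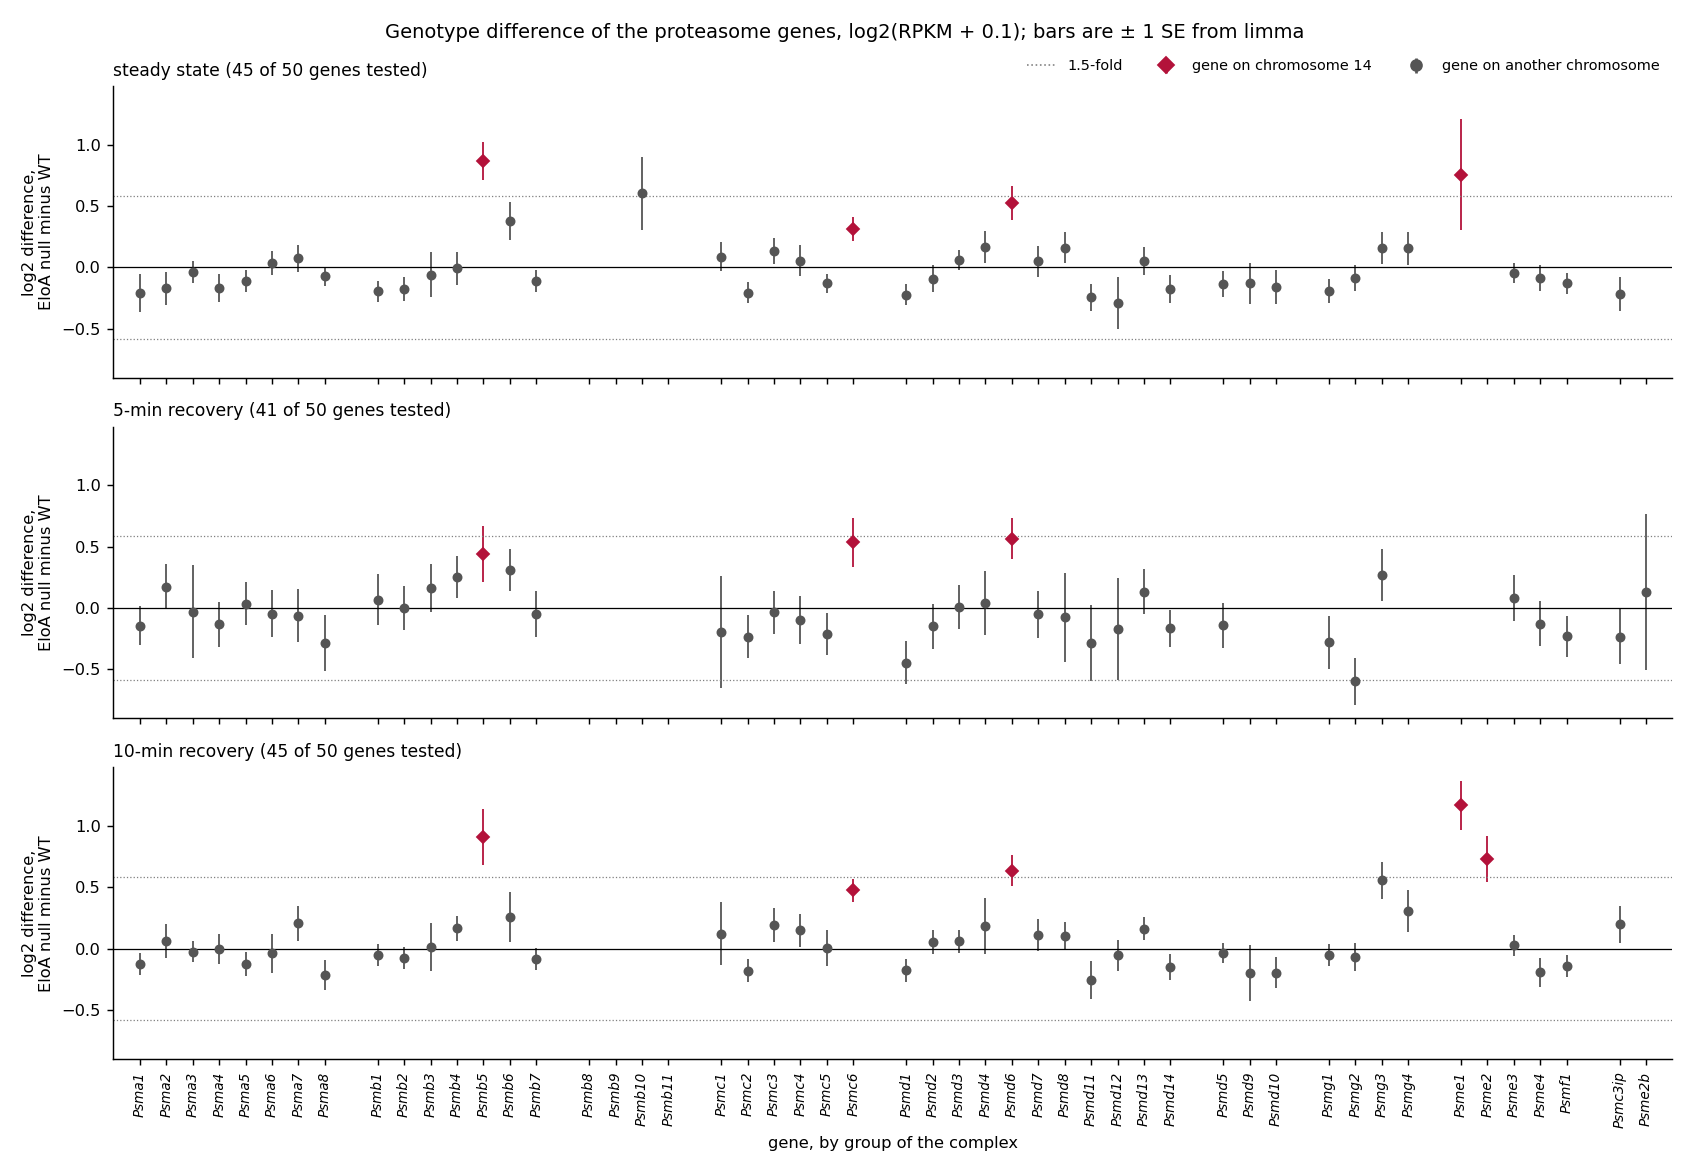
Log2 difference between the libraries labelled EloA null and WT, on log2(RPKM + 0.1), for each gene tested in steady state, 5-min and 10-min recovery, with bars of 1 SE from limma; diamonds are genes on chromosome 14 and dotted lines mark 1.5-fold. Psmb5, Psmc6 and Psmd6 lie above 0 in each panel and most circles within 0.3 of 0; Psme1 and Psme2 are drawn only where the libraries labelled EloA null passed the limit, so the lower 5-min values of Psme1 are not in the plot.

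The genes with the smallest p lay mostly on chromosome 14, which holds 6 of the 50: Psmb5, Psmc6, Psmd6, Psmb11, Psme1 and Psme2. Most genes of chromosome 14 had more nascent RNA in the libraries labelled EloA null. Of those tested, 92.8% were higher without overlap in steady state, 71.6% at 5 min and 86.2% at 10 min, with median log2 differences of 0.50, 0.46 and 0.51. Of the genes of the chromosome, 41.1%, 35.1% and 43.6% were over 1.5-fold higher. Psmb5, Psmc6 and Psmd6, which passed the limit in both genotypes, were higher without overlap in each condition, as most of the chromosome was. Psme1 and Psme2 entered the test only where the libraries labelled EloA null lifted them over the limit, and are not counted with these 3.

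Psmb5 (chr14:54614120-54617995, minus strand), the gene of the chymotrypsin-like site, had 2.32 and 1.76 RPKM in WT and 3.91 and 3.65 RPKM in the libraries labelled EloA null in steady state. The genotypes did not overlap, and the log2 difference was 0.87 ± 0.15 (SE; limma adjusted p = 0.119), or 0.82 without the library whose labels conflict. At 5 min it had 3.10 and 2.15 RPKM against 3.85 and 3.27 RPKM, a difference of 0.44 ± 0.23, and at 10 min 3.69 and 3.10 RPKM against 7.89 and 5.24 RPKM, a difference of 0.91 ± 0.23 (limma adjusted p = 0.167). All 6 libraries labelled EloA null lay above the WT libraries of their condition.

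Psmd6 (chr14:14112185-14120945, minus strand), a lid subunit, had 3.22 and 3.18 RPKM in WT and 5.26 and 4.11 RPKM in the libraries labelled EloA null in steady state. It had 6.01 and 5.53 RPKM against 8.37 and 8.80 RPKM at 5 min, and 9.72 and 11.7 RPKM against 16.1 and 17.1 RPKM at 10 min. No condition showed an overlap, and the log2 differences were 0.52 ± 0.14, 0.57 ± 0.17 and 0.63 ± 0.13 (SE; limma adjusted p = 0.183, 0.471 and 0.135). Without the library whose labels conflict, the steady-state difference was 0.35.

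Psmc6 (chr14:45329823-45349074, plus strand), an ATPase of the base, had 4.73 and 4.83 RPKM in WT and 6.35 and 5.60 RPKM in the libraries labelled EloA null in steady state. At 5 min the values were 6.11 and 6.02 RPKM against 7.80 and 9.98 RPKM, and at 10 min 16.7 and 17.4 RPKM against 22.5 and 25.0 RPKM. It was higher in each of the 3 conditions without overlap, by 0.31 ± 0.10, 0.53 ± 0.20 and 0.47 ± 0.10 on the log2 scale (SE; limma adjusted p = 0.225, 0.509 and 0.135), and by 0.22 in steady state without the library whose labels conflict. Its steady-state difference was smaller than the median of chromosome 14, that of Psmb5 was larger, and Psmd6 lay close to it.

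Psme1 and Psme2, the activator subunits, rest on few reads. Psme1 had 0.201 and 0.328 RPKM in WT against 0.312 and 0.792 RPKM in the libraries labelled EloA null in steady state, where the genotypes overlapped. At 5 min it had 0.342 and 0.380 RPKM against 0.202 and 0.167 RPKM, from 5 to 10 reads per library, and at 10 min 0.333 and 0.284 RPKM against 0.916 and 0.725 RPKM, from 13 and 13 reads and from 38 and 43 reads. The 5-min values, not tested, thus ran opposite to the 10-min values, where the difference was 1.17 ± 0.20 (SE; limma adjusted p = 0.112). Psme1 was admitted to that test by the libraries in which it was high, although at 10 min its mean over all 4 libraries also lay above 0.5 RPKM. Psme2 had 0.247 and 0.161 RPKM against 0.464 and 0.484 RPKM in steady state, 0.211 and 0.274 RPKM against 0.320 and 0.241 RPKM at 5 min, and 0.424 and 0.487 RPKM against 0.920 and 0.729 RPKM at 10 min. It overlapped between genotypes at 5 min only. Emc9 overlaps Psme1, and the start of Rnf31 lies within 1000 bases of that of Psme2, so reads may be shared. Psmb11, between 0 and 5 reads, was not tested in any condition.

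**Figure D5:**
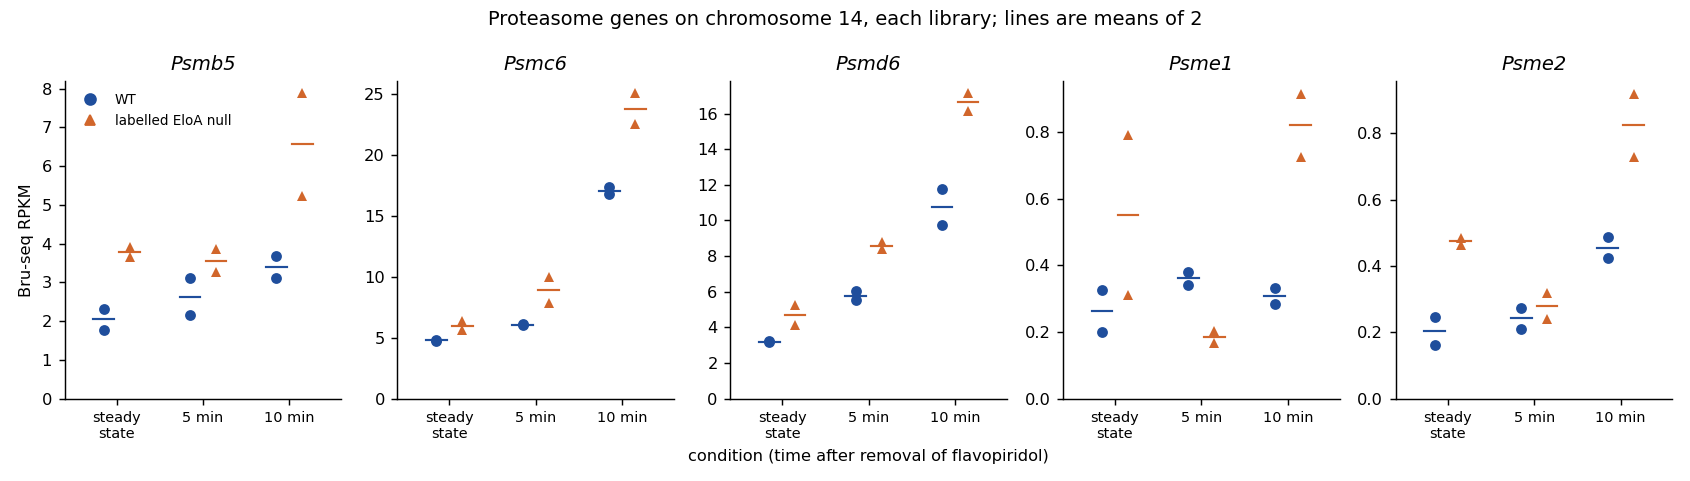
Bru-seq RPKM of 5 genes of chromosome 14 in every library, by condition; circles are WT, triangles are labelled EloA null, and short lines are means of 2 libraries. Psmb5, Psmc6 and Psmd6 lie above WT in both libraries labelled EloA null in each condition, while Psme1 runs the other way at 5 min.

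Off chromosome 14 the median differences between genotypes were small. Single genes ran from -0.29 to 0.61 (Psmb10) on the log2 scale in steady state. At 5 min they ran from -0.60 to 0.31, and at 10 min from -0.26 to 0.56. Of 41 proteasome genes tested in steady state, 4 were higher without overlap (29.7% of all genes off that chromosome) and 16 lower (22.1%), with a median log2 difference of -0.09 beside 0.02 for all such genes. At 5 min 4 of 38 were higher (13.1%) and 10 lower (25.9%), and at 10 min 5 of 40 were higher (31.5%) and 13 lower (22.6%). The medians at 5 and 10 min were -0.07 and -0.01, beside -0.07 and 0.05 for all such genes, so that at 5 min the proteasome genes lay where the other genes did. In steady state the lowest difference was -0.29, for Psmd12, whose genotypes overlapped. They differed by gene span. The 8 genes above 30 kb had a median of -0.14 in steady state, -0.15 at 5 min and -0.16 at 10 min (all genes of that span: -0.06, -0.11 and -0.07), and 6, 3 and 7 of the 8 were lower without overlap (40.0%, 37.7% and 40.7% of all genes of that span). Those below 10 kb had medians of 0.06, -0.04 and 0.16 (all genes: 0.16, -0.01 and 0.24). The part of gene length in these differences was not tested.

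Among single genes off chromosome 14, Psmd1, a scaffold subunit of 74677 bases that holds Htr2b within it, had 4.65 and 4.69 RPKM in WT against 4.11 and 3.88 RPKM in the libraries labelled EloA null in steady state, 4.07 and 4.70 RPKM against 3.00 and 3.39 RPKM at 5 min, and 4.85 and 4.56 RPKM against 4.10 and 4.21 RPKM at 10 min. It was lower in every condition without overlap, by 0.22, 0.44 and 0.18 on the log2 scale, of which the 5-min difference was -0.44 ± 0.17 (SE; limma adjusted p = 0.527). Psmg2, the partner of Psmg1 in alpha ring assembly, was lower at 5 min only, with 1.29 and 0.973 RPKM against 0.692 and 0.719 RPKM, a log2 difference of -0.60 ± 0.19 (SE; limma adjusted p = 0.489). In steady state and at 10 min its genotypes overlapped. The change of its genotype difference from steady state to 5 min was -0.51 ± 0.19 (SE; limma adjusted p = 0.813).

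Psmg3, another core chaperone, had 1.76 and 1.61 RPKM in WT against 2.84 and 2.24 RPKM in the libraries labelled EloA null at 10 min, without overlap (0.56 ± 0.15, SE; limma adjusted p = 0.176). At 5 min the values were 0.892 and 0.631 RPKM against 0.906 and 0.949 RPKM, also without overlap. In steady state they were 0.886 and 1.00 RPKM against 0.967 and 1.17 RPKM and overlapped. Psmb6 was higher without overlap in steady state (1.73 and 2.23 RPKM against 2.78 and 2.40 RPKM; 0.38 ± 0.16) and at 5 min (2.68 and 3.21 RPKM against 3.58 and 3.73 RPKM; 0.31 ± 0.17), and overlapped at 10 min. Psmb7 moved little, by -0.11 ± 0.09 in steady state. Psma8 was lower without overlap in each condition, by -0.07 ± 0.08, -0.29 ± 0.23 and -0.21 ± 0.12.

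Fitted with 1 spread over all 12 libraries, which uses the recovery and steady-state tables together, the 5-min comparison called 4 proteasome genes at an adjusted p of 0.05, where 5.92% of all genes were called. Psmc6 (limma adjusted p = 0.0492) and Psmd6 (0.0497) were higher, and Psmd1 (0.0407) and Psmg2 (0.0446) were lower. Over all settings their limma adjusted p ran up to 0.757, 0.775, 0.777 and 0.777. These are 2 higher (2.85% of all genes) and 2 lower (3.07%). In both genotypes a larger share of all genes differed over 1.5-fold between the 2 libraries at 5 min than in steady state. A single spread over all 12 libraries can therefore understate the spread at 5 min. The 4 calls of this fit, absent within the 5-min table, carry that limit. In the same fit 0 of 45 were called in steady state (1.16% of all genes; 0.828% higher and 0.335% lower) and 0 of 45 at 10 min (2.58%; 1.84% higher and 0.742% lower), with Psmd6 at 10 min the nearest (0.0509). Whether the genotype difference itself changed from steady state was tested in this fit too: 0 of 40 genes passed at 5 min (0.0811% of all genes called) and 0 of 44 at 10 min (0.0102%), and 1 and 0 had an unadjusted p under 0.05 (5.57% and 1.37%).

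Of 28 further genes of the ubiquitin and proteasome system, chosen by their role, 27 were matched (Paaf1 was not). They include the core chaperone Pomp, the ubiquitin receptor Adrm1, the deubiquitinases Usp14 and Uchl5, the factors Nfe2l1 and Nfe2l2, the segregase Vcp and the ubiquitin genes. Within the tables, none of the 27 tested in steady state passed a limma adjusted p of 0.05, and neither did any of the 26 in either recovery. With all 12 libraries in 1 fit, 1 was called, Ecpas at 10 min, which was lower. That fit called 2.58% of all genes at 10 min, 0.742% of all genes being lower. Ubqln2, a shuttle factor that carries ubiquitinated proteins to the proteasome, was over 1.5-fold higher in steady state (1.06 and 1.07 RPKM against 1.48 and 1.74 RPKM) and at 10 min (1.23 and 1.49 RPKM against 1.99 and 2.34 RPKM). Ecpas, a proteasome adaptor, was over 1.5-fold lower at 10 min (0.784 and 0.880 RPKM against 0.488 and 0.517 RPKM, limma adjusted p = 0.160 within the table). Of all genes tested, 7.21% in steady state and 9.41% at 10 min were over 1.5-fold higher, and 3.01% at 10 min were over 1.5-fold lower. Pomp went from 3.67 and 3.37 RPKM in WT steady state to 5.85 and 4.55 RPKM at 5 min and 14.3 and 11.9 RPKM at 10 min. Nfe2l1 had 3.55 and 2.78 RPKM in WT and 3.26 and 3.26 RPKM in the libraries labelled EloA null in steady state, which lay within the WT range.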

How the data were processed

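Bru-seq RPKM values of 12 of the 28 samples were used; the other 16, from CUT&RUN and ChIP, and the spike-in were left out. Paired-end reads aligned to mm10 and dm3 with bowtie2 were filtered for unique alignments, counted over RefSeq genes with featureCounts and normalized with edgeR by the authors, who deposited RPKM values in 1 table per condition. Tables were not scaled to one another here, so genotypes were compared within a table, also in the fit of all 12 libraries. Bowtie2 2.3.4.3 and featureCounts 1.6.1 are named in the submitters' processing notes. The use of strand in counting, the RefSeq release and the scaling between tables are not given in the sources used here; 14 of the 50 genes overlap another gene and 11 have a divergent start within 1000 bases. RNA input is stated as different amounts in the labels and the paper.

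Values of log2(RPKM + 0.1) were compared with limma 3.58.1 (R 4.3.3, mean-variance trend, Benjamini-Hochberg over all genes tested) within a table, for genes with a mean above 0.5 RPKM in either genotype. A 1.5-fold ratio of mean RPKM, the study's limit, was counted beside it. Libraries were simulated with the same spread for every gene and condition and with gene span as the length. On them limma recovered 0, 9 and 46 of 50 genes changed 1.5-fold, 2-fold and 4-fold in steady state (11347 genes, 20 false calls). At 5 min it recovered 0, 5 and 38 (8985 genes, 35 false calls), and at 10 min 1, 17 and 46 (10241 genes, 23 false calls). With no gene changed it called 0, 26 and 2 genes in these conditions. All false calls were in genes under 20 reads, and at that spread changes of 1.5-fold were mostly out of reach. The real spread varied: 5.04% of WT genes differed over 1.5-fold between the 2 libraries in steady state and 14.0% at 5 min. Recovery in the data may therefore differ. Reads were recovered from the RPKM steps (whole within 0.02) and served for depth only. Genes were placed on GRCm38.p6, the assembly behind mm10. The proteasome genes, the lists and the tests were chosen with earlier results of these data known. Genes named with values were the highest and lowest of each group in WT steady state, the 5 with the smallest p in each comparison, those on chromosome 14, the catalytic pairs and tissue-specific genes, the name matches outside the complex and the extremes of recovery; Psma2, Psma6, Psmb2, Psmc5, Psmd11, Psmd12, Psme3, Psmg3, Ubqln2, Ecpas, Pomp and Nfe2l1 were added after their values were seen.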

Additional observations from a re-analysis of the deposited data

How the results depend on the processing

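The count of proteasome genes called at an adjusted p of 0.05 was 0 in all 3 conditions and stayed 0 under another pseudocount, no filter or one on the mean of all 4 libraries, centred or quantile-normalized libraries, removal of the trend with gene length or GC content, robust variances and each left-out library; only the fit of all 12 libraries changed it, to 4 at 5 min. Without the filter, 6 genes in steady state and 8 at 10 min were over 1.5-fold higher and 4 at 5 min lower. Genes of few reads, such as Psmb9 and Psmb11, entered with this setting. The shares of all genes are not given here for this count and the next ones, so they cannot be set beside a background. At 5 min, 2 were over 1.5-fold higher with centred libraries or the GC trend removed and 1 with the length trend removed, and 0 were lower after quantile normalization. At 10 min, 3 were over 1.5-fold higher with centred or quantile-normalized libraries and 2 with the length trend removed, and the median log2 difference, 0.01, became -0.083, -0.080 and -0.084 with these 3 settings and -0.044 with the GC trend removed, so its sign rests on the scaling. The median for the proteasome genes of chromosome 14 stayed above 0. It takes in Psme1 in steady state and Psme1 and Psme2 at 10 min, which only the libraries labelled EloA null lifted over the limit. That filter favours higher values for them, so these medians, also with 1 library left out, are a description and no support. Psmb5, Psmc6 and Psmd6 each stayed above 0 under every setting in all 3 conditions. With genes kept by their mean over all 4 libraries, a setting chosen after seeing the data, the median was 0.52 in steady state, without Psme1. In steady state it was also 0.35 with a pseudocount of 1, 0.48 after quantile normalization and 0.46 and 0.53 with the length and GC trends removed. At 10 min it was 0.48 with a pseudocount of 1, 0.84 with 0.01, 0.63 centred, 0.61 after quantile normalization and 0.43 with the length trend removed.

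Leaving out 1 library at a time gave chromosome 14 medians from 0.52 to 0.70 in steady state and from 0.62 to 0.88 at 10 min, from 0 to 1 genes over 1.5-fold lower in steady state (1 without the second library labelled EloA null), and from 1 to 3 higher and 0 to 3 lower at 5 min, where each of the 4 libraries changed these counts. The median recovery ratio ran from 2.45 to 2.71 (WT, 10 min) and from 1.30 to 1.44 (libraries labelled EloA null, 5 min). Divided by the median ratio of all expressed genes it was 2.20 and 2.48 in WT and 2.52 at 5 min in the libraries labelled EloA null; over genes above 2 RPKM it was 1.70 and 2.77 in WT and 1.51 and 2.96 in the others. A fit with replicate number as a block called 0 proteasome genes in each condition, and over all genes 0 in steady state, 128 at 5 min (0 without it) and 0 at 10 min. Deviations from the group means correlated weakly between same-numbered libraries (0.101, 0.119 and 0.103). With 2 libraries a group and no source saying that a number marks a shared experiment, the libraries were not treated as pairs, and whether the numbers pair them is not settled. No direction of a gene named for its p was reversed under any setting. At 2 to 12 reads a library, values of Psme1, Psme2 and Psmb10 at 5 min are limited by depth.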
